A study of Mus musculus with 8 samples.

Results

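The mitosis and spindle genes are 56 mouse genes whose products carry a cell from entry into mitosis to its division: cyclins and Cdk1, mitotic kinases, the spindle checkpoint, the trigger of anaphase, kinesin motors, spindle organisers, kinetochore proteins and chromosome-shaping proteins. They were taken from a list of gene symbols. A gene counted as measured if an array row named that symbol and no other, and 50 of the 56 were measured, among 14351 symbols on 14551 such rows of 16317 rows in all. Ccnb1, Foxm1, Kif14, Cenpf, Ncapg and Mki67 had no such row and were not analysed here. None of the 50 lay on more than 1 row.

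The 8 mouse samples, each hybridised to an Affymetrix whole-transcript array, formed 3 groups. The 4 medulloblastomas, tumours of the cerebellum, came from adult mice that combined Ptc+/- with RosaGli1-FLAG c/c and Math1-Cre. The 2 samples of Gli1FLAG granule neuron precursors (GNPs) were purified at P8, postnatal day 8, from litters of RosaGli1-FLAG c/c mice crossed with Math1Cre mice. Their titles call them Gli1FLAGCre+, that is, positive for Cre. The 2 samples of Ptc+/- GNPs were purified at P8 from Ptc+/- mice. Tumours and Gli1FLAG GNPs thus shared the FLAG-tagged Gli1 that Cre switches on, and tumours and Ptc+/- GNPs shared the targeted allele of Ptch1, the hedgehog receptor gene; there was no wild-type group. Math1-Cre acts in the Math1 (Atoh1) lineage, so the tagged Gli1 is limited to cells that have expressed Math1. Disease cannot be told apart here from adult age, from whole tumour against purified cells, or from the joint presence of both alterations. The labels call the replicates biological but do not say whether animals were pooled or shared, so the p-values reflect no more than the spread among these 8 samples.

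GNPs are the cells of the outer cerebellum that divide after birth under Sonic hedgehog before they leave the cycle and become granule neurons, and hedgehog-type medulloblastoma arises from them. Most mitotic genes are transcribed in G2 and early mitosis and are silent in cells that have left the cycle, so in a tissue their RNA follows both how many cells divide and how much RNA each holds. In these bulk samples fewer dividing cells and less RNA per cell cannot be told apart. Many such genes carry in their promoters a CHR element, with the letters TTTGAA or TTTAAA, which binds the MuvB complexes that repress them in resting cells and activate them with B-Myb and FoxM1 in dividing ones, and CCAAT boxes, which bind NF-Y.

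Promoters from RefSeq (GRCm38.p6, 250 bases before to 50 bases after the start of transcription, the first-listed promoter of each symbol) were found for 42 of the 50 measured members. Searched on both strands, TTTGAA stood in 28 of the 42 (66.7%), against 18.1% of 27025 mouse promoters of the same length. CCAAT stood in 29 (69%), against 37.9% of all, and TTTGAA together with CCAAT in 23 (54.8%), against 7.12%. TTTAAA was less frequent, in 8 members (19%) against 13.2% of all. A match describes letters and is not evidence of binding. The 150 bases before the start are shown for 4 members to which the results below return and for Cdk1 and Ube2c, which passed in no comparison, with TTTGAA and its variant TTTAAA, and also CCAAT, in capitals on either strand (TTCAAA and ATTGG are TTTGAA and CCAAT read on the other strand):
Kif15, chr9:122950931-122951080, plus strand: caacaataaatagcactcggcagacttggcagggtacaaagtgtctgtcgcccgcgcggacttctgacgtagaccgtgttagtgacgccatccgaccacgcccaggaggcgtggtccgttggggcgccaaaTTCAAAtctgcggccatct
Bub1, chr2:127831860-127832009, minus strand: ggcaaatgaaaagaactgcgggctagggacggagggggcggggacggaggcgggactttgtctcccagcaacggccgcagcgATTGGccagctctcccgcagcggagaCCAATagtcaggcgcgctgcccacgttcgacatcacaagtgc
Ect2, chr3:27153879-27154028, minus strand: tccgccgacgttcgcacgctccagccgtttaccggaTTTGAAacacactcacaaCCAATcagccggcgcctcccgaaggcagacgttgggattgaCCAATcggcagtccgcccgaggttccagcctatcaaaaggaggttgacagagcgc
Top2a, chr11:99024190-99024339, minus strand: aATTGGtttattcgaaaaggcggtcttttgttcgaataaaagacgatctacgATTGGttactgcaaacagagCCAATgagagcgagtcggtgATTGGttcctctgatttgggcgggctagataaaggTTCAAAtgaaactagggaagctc
Cdk1, chr10:69352913-69353062, minus strand: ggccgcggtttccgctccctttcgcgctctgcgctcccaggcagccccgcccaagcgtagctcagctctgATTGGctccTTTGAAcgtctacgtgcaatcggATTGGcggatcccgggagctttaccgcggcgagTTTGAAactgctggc
Ube2c, chr2:164769779-164769928, plus strand: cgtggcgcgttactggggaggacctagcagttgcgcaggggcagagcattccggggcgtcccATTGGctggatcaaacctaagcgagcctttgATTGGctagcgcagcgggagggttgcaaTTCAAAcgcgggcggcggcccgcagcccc

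In the 150 bases shown, Ect2, Kif15, Top2a and Ube2c hold 1 TTTGAA each, Cdk1 holds 2 and Bub1 holds 0. Top2a holds 4 CCAAT boxes, Bub1, Cdk1, Ect2 and Ube2c hold 2 each, and Kif15 holds 0.

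Levels are given as log2(intensity + 1) after quantile normalization, and differences are on the same scale, where dim transcripts show too small a change. All 50 members were tested, without a filter on low values. The dimmest member lay at the 38.0 to 56.1 percentile of all rows of its array, and the median member at the 71.5 to 85.5 percentile, ranks that depend on each row's probes. Deposited median intensities ran from 109 to 310 between arrays before normalization. As a check of the labels, Gli1 stood at 10.58, 10.42, 10.52 and 10.90 in the tumours, at 10.08 and 10.19 in Gli1FLAG GNPs, and at 9.24 and 9.38 in Ptc+/- GNPs. Atoh1 and Zic1, defining genes of GNPs, lay at or above the 76.2 percentile on every array, and 12 or 13 of 14 measured genes of GNP identity lay above the 50 percentile on each.

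Tumours were set against Ptc+/- GNPs, the comparison named in the series' design. No mitosis or spindle gene passed as higher in the tumours, and a few passed as lower. Of the 50 members 0 rose and 4 fell, namely the kinesin gene Kif15, the checkpoint kinase gene Bub1, the cytokinesis gene Ect2 and the topoisomerase gene Top2a. The 4 are 8% of the members, against 8.92% of all rows that fell, and 7.54% of all rows rose. The share of members that fell was thus close to that of all rows. The median difference over the members was -0.24, against 0.01 over all rows, and without medulloblastoma 2 it was -0.13. In 35 of 50 members the fitted difference lay below 0 (70%, against 49.4% of rows). All 4 tumours lay below both Ptc+/- GNP samples in 19 members (38%, against 22.1% of rows), and above both in 3 (6%, against 19.9%), which were Anln, Cdc25b and Pttg1. For 25 members the 95% interval of the difference lay within 1 log2 unit on either side of 0. The count of falls changed when arrays were left out. It was 13 without medulloblastoma 4 and 3 without medulloblastoma 1, 2 or 3. Rows passing in either direction then numbered 2898 and 1751, 2345 or 2854, against 2687 in the full fit. Without any 1 GNP array fewer members fell, and fewer rows passed over all. Such a fit leaves 1 array in a group, so sizes are given. The member median was -0.31 and -0.18 without Ptc+/- GNP replicates 1 and 2. It was -0.24 without either Gli1FLAG array, whose group enters only the normalization and the shared spread.

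**Figure D1:**
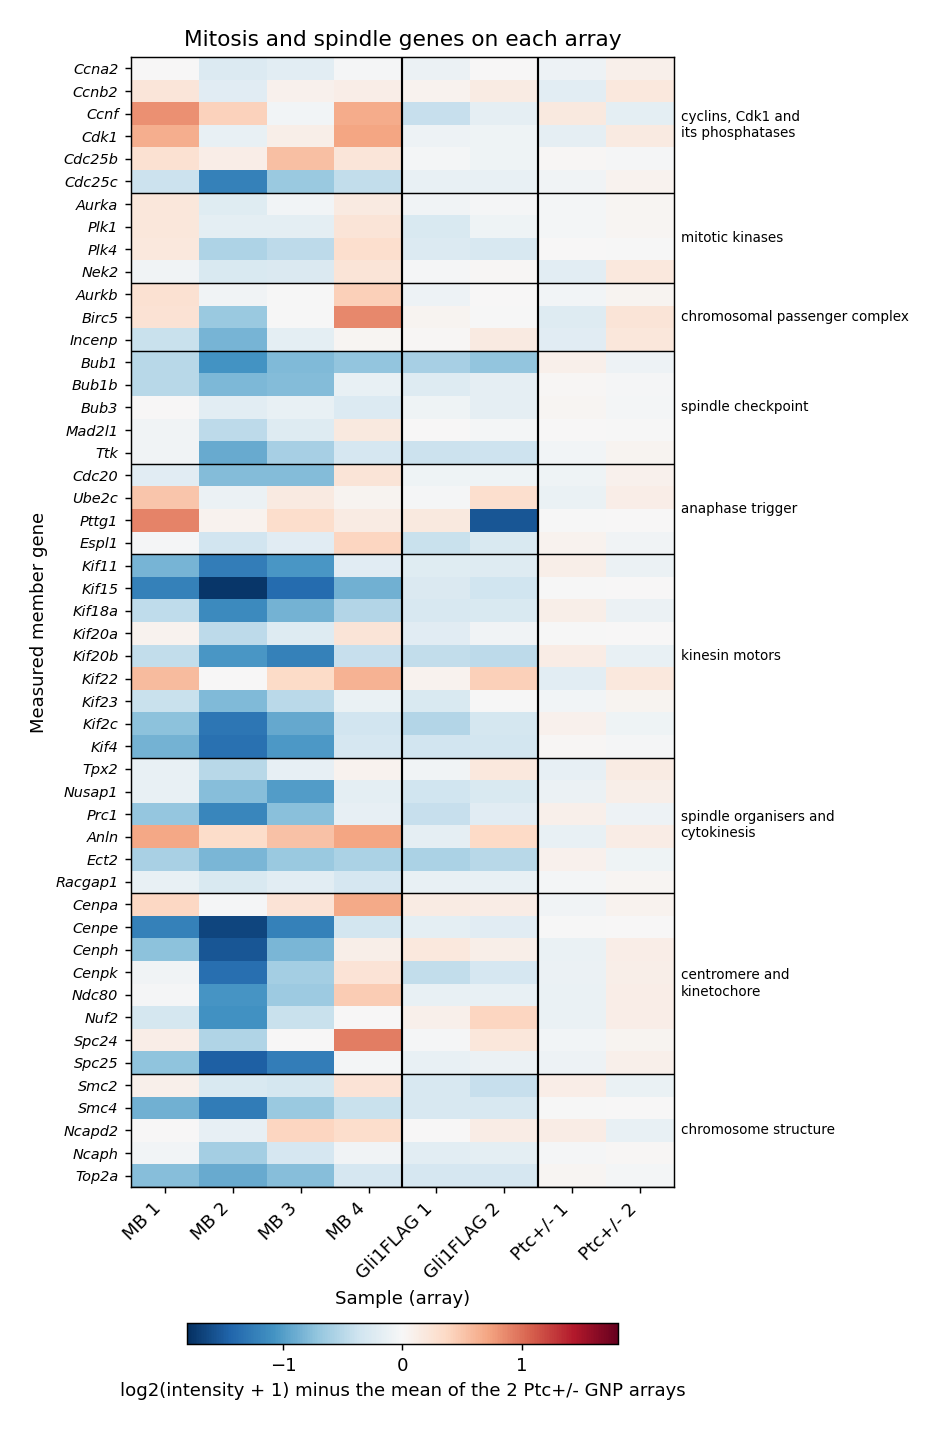
Level of each of the 50 measured members on each of the 8 arrays, as log2(intensity + 1) minus the mean of the 2 Ptc+/- GNP arrays; rows are genes grouped by role, columns are arrays (MB, medulloblastoma), blue is lower and red higher. Medulloblastoma 2 holds the deepest blue, most of it among the kinesin and kinetochore genes, and the dark blue cell of Pttg1 is Gli1FLAG GNP replicate 2.

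Against Ptc+/- GNPs, the reference of the map of member levels on each array, the role medians were not alike. The median difference between tumours and Ptc+/- GNPs was lowest among the kinesin motors (-0.78 over 9 measured), the spindle checkpoint (-0.47 over 5) and the centromere and kinetochore genes (-0.45 over 8). It was -0.37 among 6 spindle organisers and cytokinesis genes and -0.26 among 5 chromosome structure genes. It lay near 0 for 4 mitotic kinases (-0.04) and 4 genes of the anaphase trigger (0.05), and above 0 for 3 chromosomal passenger genes (0.11) and for 6 cyclins, Cdk1 and its phosphatases (0.17). Against Gli1FLAG GNPs the medians were -0.40 for kinesin motors, -0.12 for the checkpoint and -0.44 for centromere and kinetochore genes. They were -0.17 for spindle organisers and cytokinesis, -0.07 for chromosome structure and 0.09 to 0.15 for the remaining roles. Gli1FLAG GNPs themselves lay at -0.29, -0.20, -0.02, -0.22 and -0.29 from Ptc+/- GNPs in the 5 roles named first. Differences between roles were not tested.

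No gene of the engine of mitotic entry, Cdk1 with its cyclins and activating phosphatases, passed. Cdk1, which encodes the kinase itself, stood at 10.52, 9.73, 9.96 and 10.57 in the tumours, at 9.78 and 9.78 in Gli1FLAG GNPs, and at 9.70 and 10.03 in Ptc+/- GNPs, a difference of 0.33 ± 0.27 (SE) from Ptc+/- GNPs that did not pass (adjusted p = 0.428). Tumours 1 and 4 lay above both Ptc+/- GNP samples and tumours 2 and 3 between them. Ccna2, which encodes cyclin A2, was among the 3 members with the narrowest range over all 8 arrays, from 10.79 to 11.12. Of the phosphatases that activate Cdk1, Cdc25c stood at 8.42, 7.59, 8.14 and 8.37 in the tumours, at 8.67 and 8.67 in Gli1FLAG GNPs and at 8.74 and 8.87 in Ptc+/- GNPs. All 4 tumours lay below all 4 GNP samples, yet the difference of -0.68 ± 0.24 from Ptc+/- GNPs missed the threshold (adjusted p = 0.0984). Cdc25b lay the other way, at 8.70, 8.54, 8.97 and 8.63 in the tumours, 8.39 and 8.35 in Gli1FLAG GNPs, and 8.45 and 8.40 in Ptc+/- GNPs. It was the 1 member that was higher in every tumour than in every GNP sample, where 14.7% of rows were, and its difference of 0.29 ± 0.16 did not pass (adjusted p = 0.246). Ccnf, which encodes an F-box protein that marks substrates for destruction, differed by 0.46 ± 0.26 (adjusted p = 0.259).

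None of the 4 mitotic kinase genes passed. Plk4, whose kinase drives centriole duplication, differed between tumours and Ptc+/- GNPs by -0.13 ± 0.27 (adjusted p = 0.771), and Nek2, a kinase gene of centrosome separation, by -0.09 ± 0.20 (adjusted p = 0.781). Aurka and Plk1, which encode the kinases of spindle assembly, differed by 0.02 each, with 95% intervals from -0.36 to 0.41 and from -0.40 to 0.44. In the chromosomal passenger complex, which corrects faulty attachments of chromosomes, the kinase gene Aurkb differed by 0.16 ± 0.18 (adjusted p = 0.585) and the scaffold gene Incenp by -0.34 ± 0.26 (adjusted p = 0.395). Birc5, which encodes survivin of the same complex, spread over the tumours, at 8.88, 7.94, 8.61 and 9.48, around 8.67 and 8.61 in Gli1FLAG GNPs and 8.37 and 8.85 in Ptc+/- GNPs. Its lowest and its highest values were both tumours.

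The 5 spindle checkpoint genes, whose products hold back anaphase until every chromosome is attached, all had fitted differences below 0, and 1 passed. Of all rows 49.4% lay below 0. In Gli1FLAG GNPs all 5 lay below 0 against Ptc+/- GNPs as well. Bub1, a kinase gene of the checkpoint, stood at 9.04, 8.46, 8.74 and 8.83 in the tumours, at 8.95 and 8.83 in Gli1FLAG GNPs, and at 9.63 and 9.45 in Ptc+/- GNPs. It fell by 0.77 ± 0.18 (SE), to a level 1.71-fold lower in tumours than in Ptc+/- GNPs (adjusted p = 0.0320). The tumours lay below both Ptc+/- GNP samples but overlapped the Gli1FLAG GNPs, which were low as well. Bub1b, which encodes BubR1 of the complex that blocks Cdc20, differed by -0.56 ± 0.21 (adjusted p = 0.112), with tumours at 9.81, 9.50, 9.53 and 10.17 and Ptc+/- GNPs at 10.33 and 10.29. Bub3, their binding partner, had the narrowest range of all members over the 8 arrays, from 10.45 to 10.73. The call of Bub1 was lost without either Gli1FLAG array (adjusted p = 0.0687 and 0.0686) or either Ptc+/- GNP array (0.209 and 0.109).

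None of the 4 genes of the anaphase trigger passed. Cdc20, which switches on the anaphase-promoting complex, stood at 9.59, 9.01, 9.00 and 10.01 in the tumours, at 9.71 and 9.71 in Gli1FLAG GNPs and at 9.70 and 9.86 in Ptc+/- GNPs, and its difference of -0.38 ± 0.30 from Ptc+/- GNPs did not pass (adjusted p = 0.416). Pttg1, which encodes securin, the inhibitor of separase, stood at 10.29, 9.46, 9.71 and 9.54 in the tumours, at 9.56 and 7.85 in Gli1FLAG GNPs and at 9.39 and 9.40 in Ptc+/- GNPs. Every tumour lay above both Ptc+/- GNP samples, and Gli1FLAG GNP replicate 2 stood far below all other arrays. The difference of 0.36 ± 0.45 from Ptc+/- GNPs did not pass (adjusted p = 0.625), and its error holds that 1 array's gap. The ubiquitin-conjugating enzyme gene Ube2c and the separase gene Espl1 differed by 0.15 and -0.05, with 95% intervals from -0.34 to 0.64 and from -0.55 to 0.45.

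**Figure D2:**
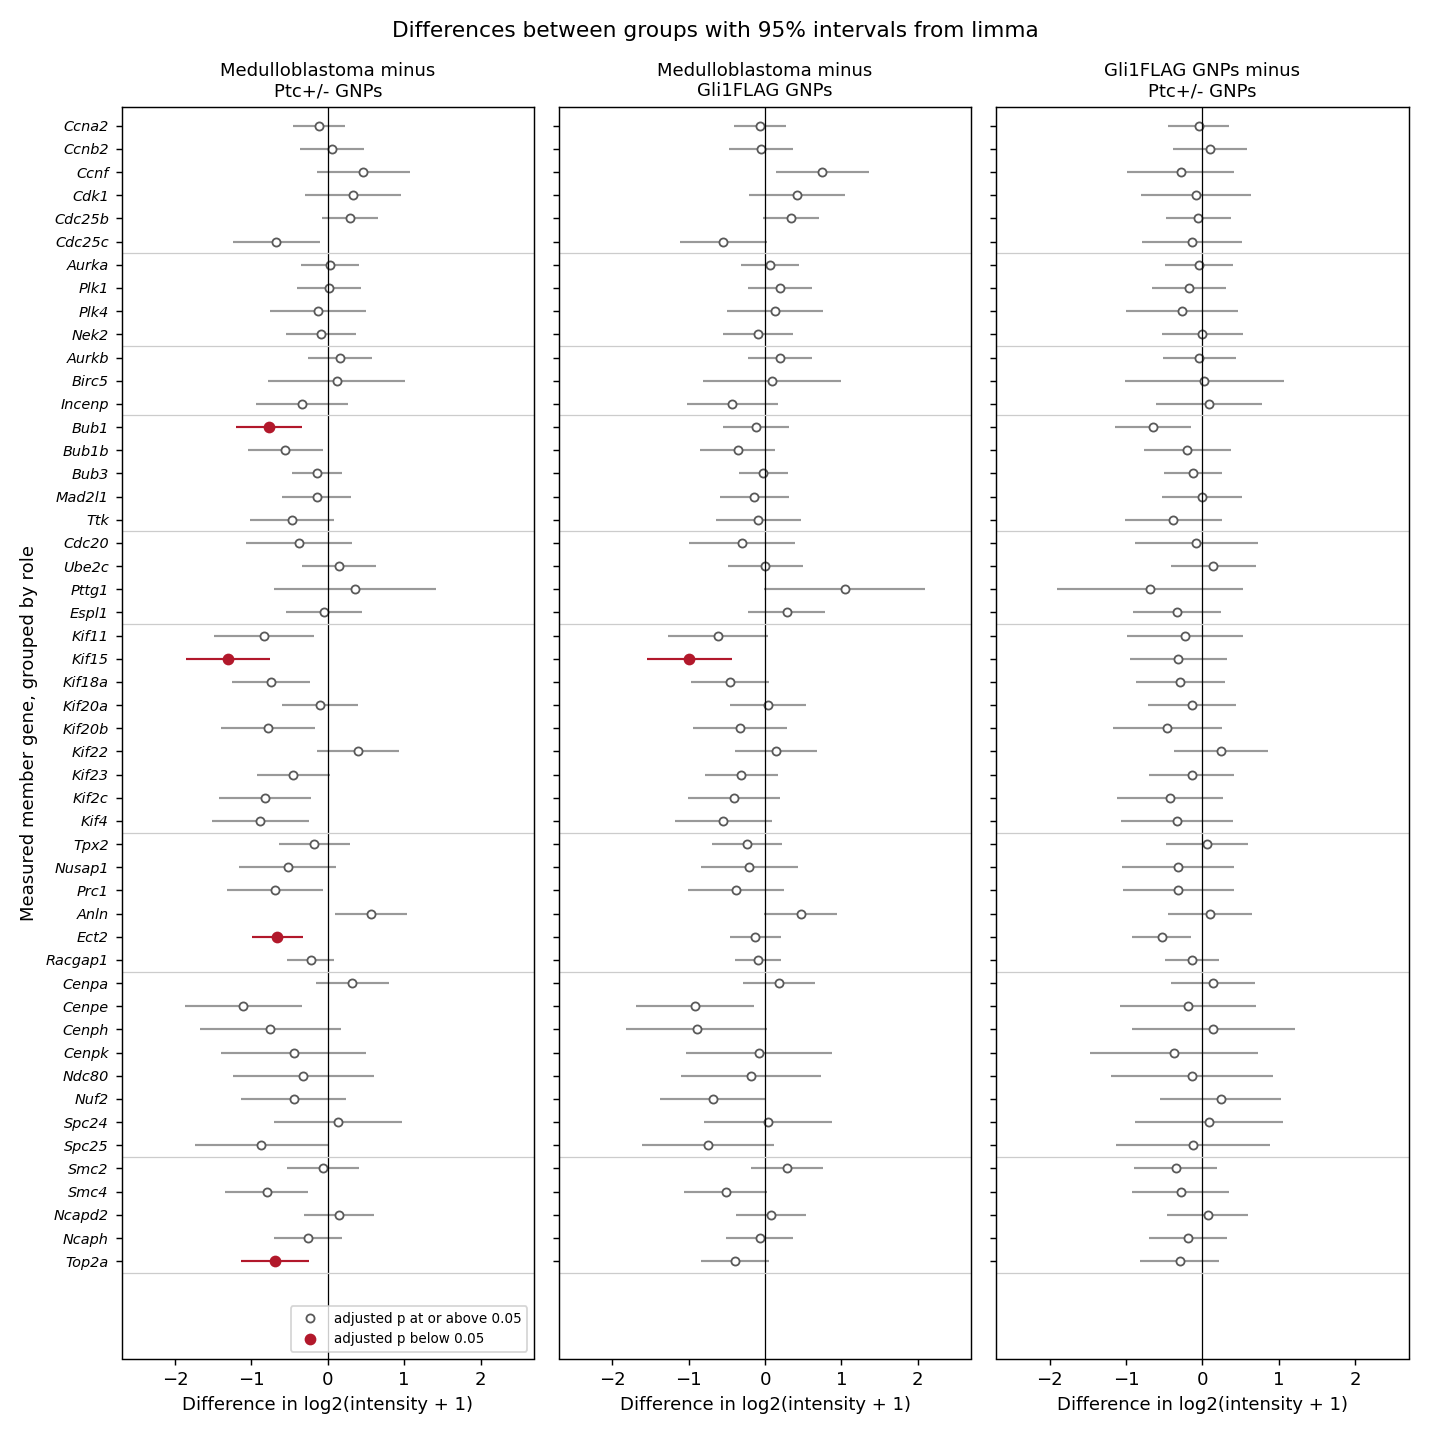
Fitted difference in log2(intensity + 1) for each measured member (open circles, adjusted p at or above 0.05; filled red circles, below 0.05) with its 95% interval from limma (horizontal lines), for medulloblastoma minus Ptc+/- GNPs, medulloblastoma minus Gli1FLAG GNPs and Gli1FLAG GNPs minus Ptc+/- GNPs. Filled circles, 4 in the left panel, 1 in the middle and 0 in the right, all lie below 0, with Kif15 farthest to the left.

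The kinesins, motor proteins that push, slide and shorten spindle microtubules, held the lowest member. Kif15, whose motor keeps the spindle poles apart beside Kif11, stood at 8.15, 7.61, 7.97 and 8.49 in the tumours, at 9.10 and 9.00 in Gli1FLAG GNPs and at 9.35 and 9.37 in Ptc+/- GNPs. The highest tumour lay below the lowest GNP sample. Kif15 fell by 1.30 ± 0.24 (SE; 95% interval -1.86 to -0.75), to a level 2.47-fold lower in tumours than in Ptc+/- GNPs (adjusted p = 0.0149). Without Ptc+/- GNP replicate 1 or 2 its adjusted p was 0.118 and 0.0843. Kif18a, a motor that dampens chromosome swings at the metaphase plate, stood at 7.99, 7.30, 7.60 and 7.91 in the tumours, at 8.15 and 8.17 in Gli1FLAG GNPs and at 8.55 and 8.34 in Ptc+/- GNPs. The difference from Ptc+/- GNPs was -0.74 ± 0.22 (adjusted p = 0.0564). Of the 9 measured kinesins 8 had fitted differences below 0, where 49.4% of rows did. In 7 all tumours lay below both Ptc+/- GNP samples, where 22.1% of rows did, namely Kif11, Kif15, Kif18a, Kif20b, Kif23, Kif2c and Kif4. The 1 kinesin gene above 0 was Kif22, a chromosome-arm motor (0.39 ± 0.23; adjusted p = 0.279). Gli1FLAG GNPs likewise had 8 of the 9 below 0 against Ptc+/- GNPs, and 7 lower without overlap (24% of rows). All tumours lay below both Gli1FLAG GNP samples in 2 of the 9 (21.4% of rows), Kif15 and Kif18a.

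Among spindle organisers and cytokinesis genes, Ect2, which encodes the exchange factor that switches on RhoA at the cleavage furrow, stood at 9.89, 9.65, 9.80 and 9.90 in the tumours, at 9.90 and 9.98 in Gli1FLAG GNPs and at 10.55 and 10.39 in Ptc+/- GNPs. It fell by 0.66 ± 0.14 (SE), to a level 1.58-fold lower in tumours than in Ptc+/- GNPs (adjusted p = 0.0246). As with Bub1, Gli1FLAG GNPs lay near the tumours. Anln, which encodes anillin, a scaffold of the contractile ring, lay the other way, at 8.52, 8.15, 8.35 and 8.53 in the tumours, at 7.67 and 8.18 in Gli1FLAG GNPs and at 7.69 and 7.96 in Ptc+/- GNPs. All tumours lay above both Ptc+/- GNP samples, and the difference of 0.56 ± 0.20 did not pass (adjusted p = 0.0993). Racgap1, a partner of Ect2 at the spindle midzone, ranged over the 8 arrays from 10.70 to 11.04, and every tumour lay below every GNP sample by a small margin. The call of Ect2 was lost without either Gli1FLAG array (adjusted p = 0.0620 and 0.0621) or either Ptc+/- GNP array (0.179 and 0.0901).

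At the kinetochore, where chromosomes meet microtubules, no gene passed against Ptc+/- GNPs, and the tumours differed widely among themselves. Cenpe, which encodes a kinetochore motor that brings chromosomes to the spindle equator, stood at 7.37, 6.93, 7.36 and 8.26 in the tumours, at 8.41 and 8.38 in Gli1FLAG GNPs and at 8.58 and 8.59 in Ptc+/- GNPs. All tumours lay below all GNP samples, with tumour 4 close to them, and the difference from Ptc+/- GNPs was -1.11 ± 0.33 (adjusted p = 0.0596). Spc25, of the Ndc80 complex that grips the microtubule, differed by -0.87 ± 0.37 (adjusted p = 0.150). The widest ranges among the 4 tumours of any member belonged to Cenph, Cenpk, Birc5, Ndc80 and Spc24. Cenph and Cenpk, genes of the inner kinetochore, ran from 6.72 to 8.36 and from 6.42 to 8.02 in the tumours, against 8.14 to 8.45 and 7.34 to 7.88 in the 4 GNP samples. Ndc80 and Spc24, of the same complex as Spc25, ran from 7.21 to 8.74 and from 8.54 to 10.01 in the tumours, against 8.14 to 8.40 and 9.03 to 9.29 in GNPs. In each of these 4 genes tumour 2 was the lowest and tumour 4 the highest.

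Of the genes that shape chromosomes, Top2a, which encodes the topoisomerase that untangles sister DNA, stood at 10.35, 10.20, 10.35 and 10.81 in the tumours, at 10.82 and 10.82 in Gli1FLAG GNPs and at 11.16 and 11.08 in Ptc+/- GNPs. It fell by 0.69 ± 0.19 (SE), to a level 1.61-fold lower in tumours than in Ptc+/- GNPs (adjusted p = 0.0477). The highest tumour lay just under the Gli1FLAG GNPs. Smc4, which encodes a core subunit of condensin, the ring that compacts chromosomes, stood at 9.47, 9.07, 9.66 and 9.93 in the tumours, at 10.05 and 10.05 in Gli1FLAG GNPs and at 10.32 and 10.34 in Ptc+/- GNPs, with no overlap between tumours and GNPs. Its difference from Ptc+/- GNPs was -0.80 ± 0.23 (adjusted p = 0.0559). Its partner Smc2 differed by -0.06, with a 95% interval from -0.53 to 0.41. The call of Top2a was lost without any 1 of 7 arrays, with adjusted p from 0.0734 without tumour 3 to 0.236 without Ptc+/- GNP replicate 1, and held without tumour 4 (0.0162). It was also lost with each array centred on its own median (0.109).

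**Figure D3:**
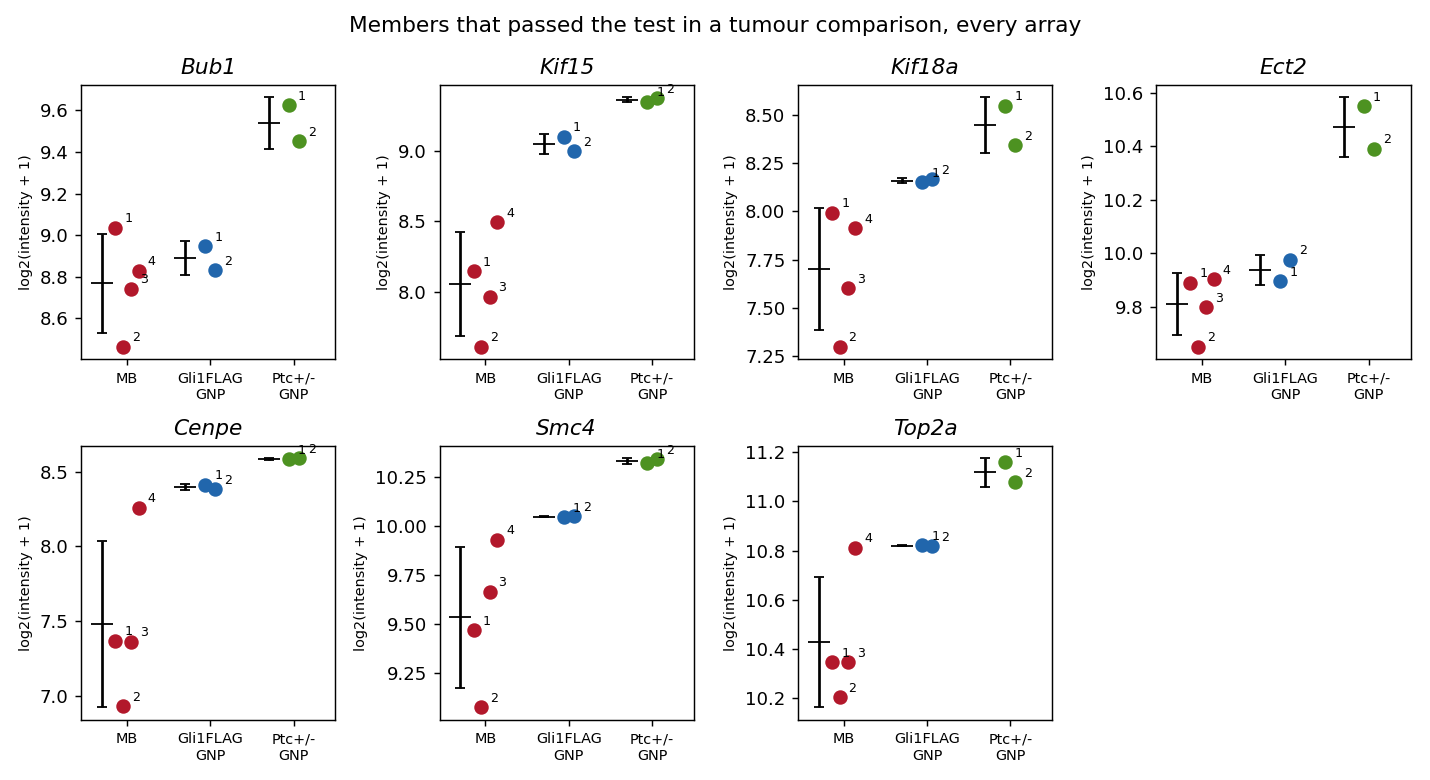
Log2(intensity + 1) of the 7 members that passed the threshold in at least 1 tumour comparison, on every array (points, numbered by replicate), for medulloblastomas (MB, n = 4), Gli1FLAG GNPs (n = 2) and Ptc+/- GNPs (n = 2), with mean and SD beside them; each panel has its own vertical axis, which does not start at 0. Tumours lie under both GNP groups in Kif15, Kif18a, Cenpe, Smc4 and Top2a, while Bub1 and Ect2 of Gli1FLAG GNPs lie among or near the tumours.

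Set against the mean of both GNP groups, which puts all 4 GNP samples on 1 side, 0 members rose and 6 fell (12%, against 12.6% of all rows that fell and 10.7% that rose). They were Kif15, Cenpe, Smc4, Kif18a, Top2a and Ect2, the first 5 of which were lower in every tumour than in every GNP sample, as were Cdc25c and Racgap1 (7 members or 14%, against 16.5% of rows). Kif15 averaged 8.05 ± 0.37 in tumours (SD, n = 4), against 9.20 ± 0.19 over the GNP samples (SD, n = 4), and fell by 1.15 ± 0.19 (SE; adjusted p = 0.00778). Cenpe fell by 1.01 ± 0.27 (adjusted p = 0.0339), Smc4 by 0.66 ± 0.19 (adjusted p = 0.0442), Kif18a by 0.60 ± 0.18 (adjusted p = 0.0472), Top2a by 0.54 ± 0.16 (adjusted p = 0.0430) and Ect2 by 0.39 ± 0.12 (adjusted p = 0.0484). In the plot of the members that passed, the gap between the highest tumour and the lowest GNP sample is widest in Kif15. Kif15 kept its call in all 14 alternative settings, leaving out each array included, with adjusted p from 0.00355 to 0.0414. With each array centred on its own median, the calls of Top2a (0.0734) and Ect2 (0.0730) were lost. The count of falls was 12 without medulloblastoma 4, 2 without medulloblastoma 1 and 1 without medulloblastoma 2 or 3, Kif15 in each case. Rows passing in either direction then numbered 3987, 2777 and 3394 or 3729, against 3812 in the full fit. Without any 1 GNP array fewer members fell too, and fewer rows passed over all. The median over the members was -0.19, and -0.06 without medulloblastoma 2, and 32 of 50 lay below 0 (64%, against 49.3% of rows).

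Against Gli1FLAG GNPs, which share the tagged Gli1 with the tumours, 0 members rose and 1 fell (2%, against 5.63% of rows that fell and 4.65% that rose). That member was Kif15, which fell by 0.99 ± 0.24 (SE; 95% interval -1.55 to -0.44), to a level 1.99-fold lower in tumours (adjusted p = 0.0419). Its call was lost without either Gli1FLAG array, either Ptc+/- GNP array, tumour 1 (adjusted p = 0.0775) or tumour 3 (0.0651). Without any 1 GNP array fewer rows passed over all. Without tumour 4 there were 6 falls, when 1980 rows passed in either direction, against 1677 in the full fit. Cenpe differed by -0.92 ± 0.33 (adjusted p = 0.120). All tumours lay below both Gli1FLAG GNP samples in 8 members (16%, against 21.4% of rows) and above both in 2, Ccnf and Cdc25b (4%, against 19.6%). Bub1 and Ect2, which fell against Ptc+/- GNPs, differed from Gli1FLAG GNPs by -0.12 ± 0.18 (adjusted p = 0.710) and -0.13 ± 0.14 (adjusted p = 0.606). The median over the members was -0.09, and -0.02 without medulloblastoma 2, and 32 of 50 lay below 0 (64%, against 49.7% of rows). This comparison equals the difference between the tumour and Gli1FLAG comparisons with Ptc+/- GNPs, so it is not independent of them.

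Between Gli1FLAG GNPs and Ptc+/- GNPs, purified at the same age, no member passed, and 0% of all rows did. At an unadjusted threshold of 0.05 in limma, 2 of 50 members passed (4%, against 3.22% of rows), Ect2 (-0.53 ± 0.17, SE) and Bub1 (-0.65 ± 0.21). Small differences below 0 were frequent: the median over the members was -0.14, against 0.00 over all rows, and 38 of 50 lay below 0 (76%, against 49.9% of rows). Both Gli1FLAG GNP samples lay below both Ptc+/- GNP samples in 28 members (56%, against 24% of rows) and above both in 1, the centromeric histone gene Cenpa (2%, against 22.3%). With 2 arrays a group the 95% intervals had a median half-width of 0.60, so differences of this size were not resolved member by member. The Ptc+/- GNP arrays also entered the comparison with tumours, so lower values in both comparisons rest in part on the same 2 arrays.

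The tumours did not hold 1 common level of mitotic RNA. Relative to the mean of the Ptc+/- GNP arrays, the median member lay at -0.06 in medulloblastoma 1, -0.64 in medulloblastoma 2, -0.31 in medulloblastoma 3 and 0.05 in medulloblastoma 4, against -0.15 and -0.13 in the Gli1FLAG GNP samples and -0.03 and 0.03 in the Ptc+/- GNP samples. Medulloblastoma 2 was the lowest tumour in 43 of 50 members (86%, against 29.5% of all rows and 32.2% of rows of like brightness), and it lay below medulloblastoma 1 in all 50. Medulloblastoma 4 was the highest tumour in 34 (68%, against 28.1% of rows) and medulloblastoma 1 in 14. By these medians tumours 4 and 1 lay in the range of the GNP samples or just above it, and tumours 3 and 2 below it. Members share each array, so these counts describe 4 samples and carry no test. The median SD among tumours was 0.316 over the members, against 0.299 over all rows and 0.241 over rows of like brightness. In Gli1FLAG GNPs it was 0.0596 over the members, 0.0899 over all rows and 0.0622 over rows of like brightness, and in Ptc+/- GNPs 0.112, 0.140 and 0.102. Tumours had the larger median SD over all rows as well as over the members. With each array centred on its own median in place of quantile normalization, the tumour medians were -0.05, -0.82, -0.37 and -0.01, where all rows lay at 0.10, 0.06, 0.17 and 0.13.

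**Figure D4:**
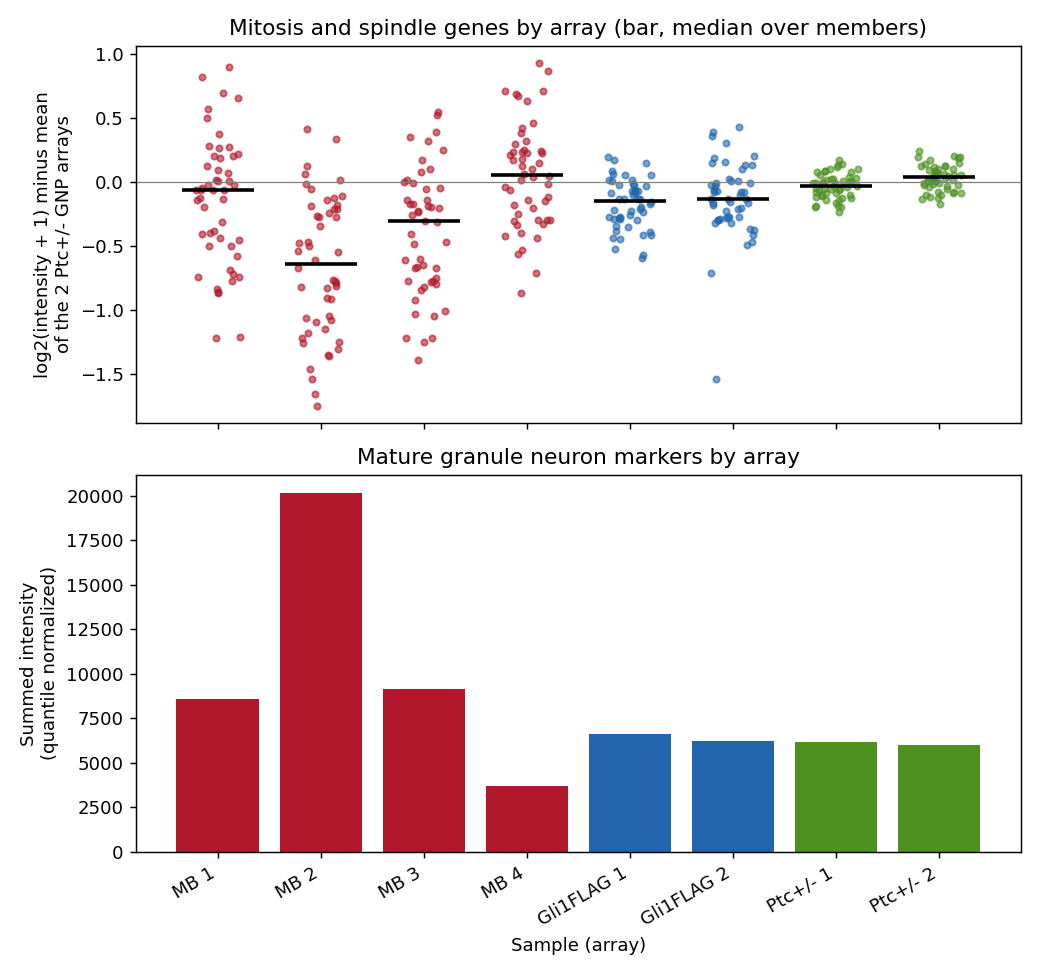
Upper panel, level of each measured member (points) and the median over members (bars) on each array, as log2(intensity + 1) minus the mean of the 2 Ptc+/- GNP arrays. Lower panel, summed quantile-normalized intensity of 13 markers of mature granule neurons on the same arrays; medulloblastoma 2 has the lowest member median and the highest marker sum (20168), and medulloblastoma 4 the highest member median and the lowest sum (3690).

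The sum of markers of mature granule neurons, cells that no longer divide, moved among the tumours against the mitosis genes, as the plot of both by array shows. The summed intensity of the 13 measured markers of 15 was 8601, 20168, 9150 and 3690 in medulloblastomas 1 to 4, against 6593 and 6243 in Gli1FLAG GNPs and 6151 and 6025 in Ptc+/- GNPs, and none of the 13 was at 0 on any array. Gabra6, which encodes a receptor subunit particular to mature granule neurons among cerebellar cells, stood at 8.11, 9.79, 6.77 and 4.41 in the tumours, at 4.54 and 4.25 in Gli1FLAG GNPs and at 4.02 and 3.97 in Ptc+/- GNPs. Cbln3 and Grin2c, also of the list, had the same order of tumours as Gabra6. Rbfox3 of the list did not. It stood at 9.98, 10.56, 10.96 and 9.92 in the tumours, at 10.39 and 10.53 in Gli1FLAG GNPs and at 10.12 and 10.21 in Ptc+/- GNPs. The tumour with the highest marker sum was the one with the least mitotic RNA, and the tumour with the lowest sum had the most. The order of tumours 1 and 3 depended on the measure. From the mean of Ptc+/- GNPs the median marker lay at 1.69, 2.69, 1.03 and -0.44 in medulloblastomas 1 to 4. Of the 13 markers 1 rose in tumours against Ptc+/- GNPs, Camk4, and 0 fell, where 7.54% of all rows rose and 8.92% fell. The count of rises was thus close to the share of all rows. Their part in the differences of the mitosis genes was not tested.

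GNP identity itself was not at an equal level in tumours and Ptc+/- GNPs. In this comparison, used below unless another is named, 7.54% of all rows rose and 8.92% fell. Of the 14 genes of GNP identity, 3 passed in limma as higher in the tumours, among them Atoh1 (2.09; adjusted p = 0.00800). A further 5 passed as lower, among them Sema6a (-1.56; adjusted p = 0.0178). Other cell types differed between the groups too. Of 12 endothelial markers 7 fell in tumours against Ptc+/- GNPs, with sums of 1198 to 1300 in the tumours, 3311 and 3339 in Gli1FLAG GNPs, and 5340 and 2118 in Ptc+/- GNPs. Of 11 measured microglial markers 4 rose, with sums of 3888 to 9300, of 2491 and 2861, and of 2148 and 2602 in the same groups. Sums of 10 astrocyte and Bergmann glia markers were 6325, 12124, 1965 and 7376 in medulloblastomas 1 to 4. They were 9078 and 9601 in Gli1FLAG GNPs and 6513 and 8891 in Ptc+/- GNPs, and 0 of the 10 passed against Ptc+/- GNPs. Against the mean of both GNP groups, where 12.6% of all rows fell, 2 of the 10 fell in limma. They were Aldh1l1 (-2.53; adjusted p = 0.0231) and Aqp4 (-3.08; adjusted p = 0.0401). Of 10 oligodendrocyte lineage markers 3 rose against Ptc+/- GNPs, the precursor genes Olig1, Olig2 and Pdgfra, and 0 fell. Yet 6 of the 10 had fitted differences below 0, and the median over the 10 was -0.50. Sums of the 10 were 4125, 6540, 2602 and 3431 in medulloblastomas 1 to 4. They were 4256 and 4643 in Gli1FLAG GNPs and 2726 and 2806 in Ptc+/- GNPs. The astrocyte and oligodendrocyte sums were thus highest in medulloblastoma 2 among the tumours, as was that of mature granule neuron markers. The microglial sum was highest in medulloblastoma 4. None of these markers was at 0 on any array. Their part in the results was not tested.

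Genes of mitosis outside the list were counted in 4 groups for the comparison of tumours with Ptc+/- GNPs, in which 8.92% of all rows fell, 7.54% rose and 49.4% lay below 0. Of 14 measured genes of cohesin, the ring that holds sister chromatids together, and its regulators, 0 rose, 3 fell and 13 lay below 0 (median -0.45). The falls were those of the acetyltransferase genes Esco2 (-0.76; adjusted p = 0.0245) and Esco1 (-0.76; adjusted p = 0.0309) and of Wapl, whose product opens the ring (-0.61; adjusted p = 0.0264). Of 14 subunits and partners of the anaphase-promoting complex 3 rose and 2 fell (median -0.26), with Anapc11, the catalytic RING subunit gene, 0.99 higher (adjusted p = 0.00636), and the subunit genes Anapc4 (-0.91; adjusted p = 0.00828) and Cdc27 (-0.54; adjusted p = 0.0301) lower. Of 21 further centromere and kinetochore genes 0 rose and 2 fell (median -0.41), Zwint (-0.66; adjusted p = 0.0256) and Cenpo (-0.90; adjusted p = 0.0372). Of 31 further genes of the spindle, mitotic entry and cytokinesis 0 rose and 3 fell (median -0.27), the spindle gene Spag5 (-1.04; adjusted p = 0.0324), the midbody gene Cep55 (-0.96; adjusted p = 0.0352) and Depdc1b (-0.63; adjusted p = 0.0477). Of 27 genes of G1/S and DNA replication 1 rose and 2 fell, with a median of -0.09. In all 5 of these lists medulloblastoma 2 had the lowest tumour median. In the further kinetochore genes the tumours lay at -0.18, -0.80, -0.54 and -0.21 from the mean of Ptc+/- GNPs. The gap was small in cohesin (-0.41, -0.51, -0.41 and -0.50), where tumour 4 was nearly as low. It was also small in the anaphase-promoting complex (-0.03, -0.36, -0.31 and 0.12).

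The promoter letters were also counted by call. Of the 6 members that fell in a tumour comparison and had a promoter, TTTGAA stood in 3 and CCAAT in 4, against 25 and 25 of the 36 others. These numbers are too small for more than a description.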

How the data were processed

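Trizol RNA was depleted of ribosomal RNA, and amplified, biotin-labelled cDNA was hybridised, per the labels' protocols. The deposited values are 1 linear intensity per transcript cluster and array. Mouse build mm8 is named, per the submitters' processing notes, while the sources used here do not give background correction, probe summary or scaling. The deposited intensities were not normalized between arrays and carried no detection p-value here, so they were quantile normalized over 8 arrays, 1 value under 0 was set to 0, and log2(intensity + 1) was used. Rows were named through the platform annotation, and 0 columns belonged to no sample.

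Differences between the 3 group means were estimated over 16317 rows with lmFit and eBayes in limma 3.58.1 (R 4.3.3), with 2.45 prior and 5 residual degrees of freedom. Two-sided p-values were adjusted by Benjamini-Hochberg over every row (threshold 0.05) in each of 4 comparisons. The scripts were tested on simulated data. The number of arrays limits the precision. The design set quantile normalization for linear intensities not normalized between arrays, and the deposited values as they were otherwise. Which case applied was decided from the deposited values.

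The members and gene lists were chosen with earlier results of these data known. Genes named with values are those past the threshold in any comparison, the 2 lowest p-values of each role for tumours against Ptc+/- GNPs, the 5 widest tumour ranges, the 3 narrowest ranges over 8 arrays and up to 3 genes of each other mitosis list. Cdk1, Aurka, Plk1, Ube2c, Espl1, Ccnf, Kif22, Smc2 and Cenpa were added after their values were seen. Outside the rule, Gli1, Atoh1, Zic1, Gabra6, Rbfox3, Sema6a, Aldh1l1 and Aqp4 were also given with values, as label checks or cell type markers. Alternatives covered normalization, offset, dim rows, arrays in the fit, variance moderation, rows per symbol, the replicate number as a block, and each array left out.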

Additional observations from a re-analysis of the deposited data

How the results depend on the processing

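Across the alternatives 0 of the 11 calls changed direction, while members short of the threshold did change sign: fitted differences below 0 against Ptc+/- GNPs numbered 31 without medulloblastoma 2 and 39 with the replicate block, against 35. The medians over the members moved by less than the spread between replicates (0.266). That spread is larger than each median of the full fit, so it cannot show that the medians are stable. Without medulloblastoma 2 the median was -0.13 against Ptc+/- GNPs (-0.24 in the full fit) and -0.02 against Gli1FLAG GNPs (-0.09). Against both GNP groups it was -0.06 (-0.19). Members that fell in tumours against Ptc+/- GNPs numbered 7 with arrays centred on their medians (3 of the 4 calls kept, with Top2a lost at adjusted p = 0.109), 9 with an offset of 16, with dim rows left out or with trended, robust variances, 1 with only the compared groups' arrays, and 0 to 13 on leaving out each array. Centring moved the median of all rows by over 0.1, to 0.13. Against Gli1FLAG GNPs falls numbered 0 with only the compared groups' arrays and 0 to 6 on leaving out each array, and rises 0 to 1. Against both GNP groups centring ended the calls of Top2a (adjusted p = 0.0734) and Ect2 (0.0730), and falls numbered 10 with trended, robust variances and 1 to 12 on leaving out each array. Rises there numbered 1 (Anln) with an offset of 16, dim rows left out or trended, robust variances, and 0 to 1 on leaving out each array. A lone array left in a group is assumed to vary like the other groups. In the tumour comparisons such fits called fewer rows over all as well. Between the GNP groups 0 members passed in every setting. The cause of these moves was not tested.

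A replicate block, under which medulloblastomas 3 and 4 have no partner and drop out, partly called other genes. It gave 6 falls against Ptc+/- GNPs, keeping 2 of the 4 calls without Bub1 (adjusted p = 0.0629) and Ect2 (0.0618). It gave 1 fall against Gli1FLAG GNPs, Cenpe in place of Kif15 (0.0510), and 7 against both groups, keeping 4 of the 6 calls without Kif18a (0.0863) and Ect2 (0.103). Deviations of same-numbered samples from their group means correlated at -0.07 to 0.01. In a group of 2 arrays these deviations are equal and opposite, so this check cannot exclude a shared origin. The labels do not say what the replicate numbers stand for.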
